A study of Mus musculus with 8 samples.

Results

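The promoters of long noncoding RNA (lncRNA) genes were examined for acetylation of lysine 27 of histone H3 (H3K27ac) in proliferating and in differentiating Oli-neu cells. A promoter region comprised the 3000 bp before the annotated gene start (TSS) and the 100 bp after it, in the mm10 mouse genome build. GENCODE release M21 held 10120 genes of the 5 biotypes lincRNA, antisense, sense_intronic, bidirectional_promoter_lncRNA and processed_transcript. Of these, 1346 were left out because their promoter region overlapped that of a protein-coding gene, and 2 more, Neat1 and Malat1, were left out by name. This left 8772 lncRNA promoters among 55450 genes of every biotype, of which 21951 were protein-coding. The members comprised 5337 lincRNA, 2529 antisense, 562 processed_transcript, 289 sense_intronic and 55 bidirectional_promoter_lncRNA genes.

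The study asked how the arginine deiminase PAD2 acts in the oligodendrocyte lineage, and its H3K27ac maps cover the cell line without Padi2 knockdown in 2 states. Oli-neu is an established mouse line of oligodendrocyte progenitors that the labels describe as embryonic in origin and of C57BL/6 strain. Proliferating cells grew in a hormone-supplemented medium with 10 ng/ml bFGF and 1 ng/ml PDGF-BB. Differentiating cells were kept for 1 day without these growth factors and with 1 µM of PD174265, an inhibitor of erb receptors, and neither group carried a knockdown. Each state was represented by 1 library, chromatin being precipitated with 1 antibody against H3K27ac, so there is no replicate error and no test between states, and every difference below compares those libraries. The intervals given with shares are 95% Clopper-Pearson intervals over genes, which cover counting error only, and genes are not replicates.

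The proliferating list held 28924 peaks covering 22.0 Mb and the differentiating list 27965 peaks covering 23.5 Mb. The read depth behind a peak is unknown, since the lists hold no counts. Among the oligodendrocyte lineage markers reported here, Sox10, Olig1 and Olig2 had a promoter peak in both states, whereas Pdgfra, Cspg4, Cnp, Nkx2-2 and Mbp had none in either. None of the 3 astrocyte, 3 neuron and 3 microglia markers had a promoter peak in either list. Only the outermost annotated start of each gene was used, so a peak at another start or further downstream did not count.

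LncRNA genes are transcribed by RNA polymerase II but are not translated into long proteins. Some act at their own locus on neighbouring genes, some act elsewhere in the nucleus or cytoplasm, and some serve mainly as precursors of small nucleolar RNAs or microRNAs. H3K27ac is deposited by the acetyltransferases p300 and CBP and marks active promoters and active enhancers, so that a peak at a gene start shows chromatin of this kind but not the amount of transcript.

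Promoter sequences of 6 members whose H3K27ac peak covered the TSS in both states are shown. Their settings run from a start site facing a coding gene to an isolated start site poor in CpG. The 6 were chosen for strong peaks, at percentile 97.8 or above of each list by significance, and do not represent all marked lncRNAs. Each sequence runs 5′ to 3′ on the strand of the gene, from 250 bp upstream of the TSS over 300 bp of mm10. 1700040L08Rik lies at chr6:71544065-71544364 on the minus strand, with its TSS 317 bp from that of Chmp3 on the opposite strand. Zfp335os lies at chr2:164911104-164911403 on the plus strand, 403 bp from the TSS of Zfp335 and antisense to it. 9230116N13Rik lies at chr1:136415470-136415769 on the minus strand, 248 bp from the TSS of Ddx59 and antisense to it. 2410080I02Rik lies at chr19:23134650-23134949 on the plus strand, outside protein-coding genes and 6326 bp from the TSS of Klf9. 4930580E04Rik lies at chr5:23386859-23387158 on the plus strand, also outside coding genes and 47332 bp from the TSS of Kmt2e. Gm20597 lies at chr10:53518940-53519239 on the minus strand, outside coding genes and 77768 bp from the TSS of Asf1a. Capitals mark matches, on either strand, to 6 motifs searched by exact letters: CCAAT, the GC box GGGCGG, the TATA element TATAAA, the E-box CAGCTG, which is its own reverse complement, the Sox-type core ACAAT, and the AP-1 element TGACTCA. No motif contains another, although matches may overlap.
1700040L08Rik: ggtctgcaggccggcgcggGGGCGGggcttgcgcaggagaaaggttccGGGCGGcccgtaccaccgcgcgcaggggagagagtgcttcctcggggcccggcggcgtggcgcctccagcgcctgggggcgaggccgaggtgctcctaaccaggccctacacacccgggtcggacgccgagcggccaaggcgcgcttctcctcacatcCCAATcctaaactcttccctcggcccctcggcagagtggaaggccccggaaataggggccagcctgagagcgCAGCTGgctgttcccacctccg
Zfp335os: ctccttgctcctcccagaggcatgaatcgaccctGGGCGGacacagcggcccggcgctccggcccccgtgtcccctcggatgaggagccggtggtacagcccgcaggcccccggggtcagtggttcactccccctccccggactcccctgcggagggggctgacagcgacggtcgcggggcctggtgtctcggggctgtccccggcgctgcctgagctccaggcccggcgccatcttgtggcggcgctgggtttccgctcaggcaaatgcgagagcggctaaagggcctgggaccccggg
9230116N13Rik: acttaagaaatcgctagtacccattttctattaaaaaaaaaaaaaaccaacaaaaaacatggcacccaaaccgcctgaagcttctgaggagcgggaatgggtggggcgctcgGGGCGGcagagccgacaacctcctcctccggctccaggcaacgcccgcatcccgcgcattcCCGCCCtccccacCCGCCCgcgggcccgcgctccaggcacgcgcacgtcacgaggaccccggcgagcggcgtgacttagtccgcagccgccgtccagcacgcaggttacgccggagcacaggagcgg
2410080I02Rik: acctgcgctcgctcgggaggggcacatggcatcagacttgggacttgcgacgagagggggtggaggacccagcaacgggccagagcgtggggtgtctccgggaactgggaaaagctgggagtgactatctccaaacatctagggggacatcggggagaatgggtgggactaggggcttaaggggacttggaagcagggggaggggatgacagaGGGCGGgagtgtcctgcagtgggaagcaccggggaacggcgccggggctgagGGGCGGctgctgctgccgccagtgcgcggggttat
4930580E04Rik: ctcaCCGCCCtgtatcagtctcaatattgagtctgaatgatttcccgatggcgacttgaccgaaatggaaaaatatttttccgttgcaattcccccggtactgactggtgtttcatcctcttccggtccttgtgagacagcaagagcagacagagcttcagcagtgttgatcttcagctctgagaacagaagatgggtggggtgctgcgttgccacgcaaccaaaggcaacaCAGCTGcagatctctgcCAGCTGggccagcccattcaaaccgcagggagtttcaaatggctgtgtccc
Gm20597: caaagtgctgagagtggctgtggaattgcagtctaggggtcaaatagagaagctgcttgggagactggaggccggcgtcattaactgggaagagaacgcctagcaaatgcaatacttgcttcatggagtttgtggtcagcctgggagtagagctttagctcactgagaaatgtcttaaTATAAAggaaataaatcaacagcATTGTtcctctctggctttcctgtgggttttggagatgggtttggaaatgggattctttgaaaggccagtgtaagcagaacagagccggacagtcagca

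The 6 sequences differed in base composition. The CG dinucleotide occurred 31 times in 1700040L08Rik, 28 times in Zfp335os, 33 times in 9230116N13Rik and 18 times in 2410080I02Rik, but 10 times in 4930580E04Rik and 4 times in Gm20597. The GC box was found in each of them except Gm20597, which held the TATA element and an ACAAT match on the other strand. These matches describe letters in the window and are not evidence that a factor bound.

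H3K27ac was found at a minority of lncRNA promoters. In proliferating cells 753 of 8772 members (8.58%, interval 8.01 to 9.19%) had a promoter peak, against a background of 14.3% of genes of every biotype and 23.7% of protein-coding genes. In differentiating cells 859 members did (9.79%, 9.18 to 10.4%), against 16.1% of all genes and 27.7% of protein-coding genes. In at least 1 state 1181 members were marked (13.5%, 12.8 to 14.2%), where all genes gave 20.7% and protein-coding genes 33.8%. The member shares thus lay below both backgrounds in each state, and they involved 736 and 851 distinct peaks, that is 2.55% and 3.04% of the lists. LncRNA genes left out because they share a promoter region with a coding gene had peaks more often, at 36.9% (34.3 to 39.5%) in proliferating and 42.4% (39.8 to 45.1%) in differentiating cells.

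Peaks were concentrated around the annotated start. The share of members with a peak in a 100 bp bin was highest between 200 and 300 bp downstream of the TSS in proliferating cells, at 5.07%, and between 100 and 200 bp downstream in differentiating cells, at 6.11%. These values were 3.87 and 4.49 times the median of the bins 8000 to 10000 bp away (1.31 and 1.36%). For protein-coding genes the corresponding shares were 20.2 and 24.2%, or 13.3 and 15.8 times their distant median. Among the 7186 members over 10 kb from every protein-coding TSS the maximum was 2.95 and 3.55%, or 2.65 and 3.36 times their distant median, so a maximum at the start was present without a coding promoter nearby.

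**Figure D1:**
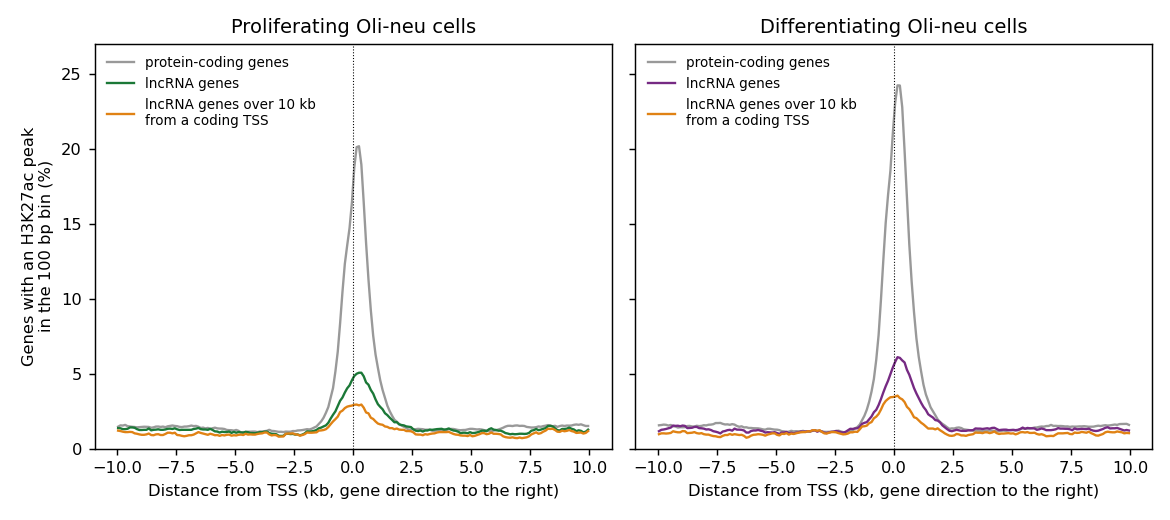
Share of genes (%, y axis) with an H3K27ac peak in each 100 bp bin against distance from the TSS in kb (x axis), for protein-coding genes, all 8772 lncRNA genes and the 7186 lncRNA genes over 10 kb from a coding TSS, by state. All curves peak just downstream of the TSS, at 5.07 and 6.11% for lncRNA genes and 20.2 and 24.2% for protein-coding genes.

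Equally long windows away from the promoter gave the local level. The window directly upstream of the promoter region held a peak in 4.83% (4.39 to 5.30%) of members in proliferating and 4.63% (4.20 to 5.09%) in differentiating cells. Windows 50 kb upstream held one in 4.96 and 5.35%, and windows 50 kb downstream in 5.14 and 5.32%. The window directly downstream, which covers the start of the gene, was marked at 10.1 and 11.1% of members, slightly more often than the promoter region itself. For members over 10 kb from a coding TSS the promoter region was marked in 6.47% (5.91 to 7.07%) and 7.36% (6.77 to 7.99%), against 4.70 to 5.16% in the windows 50 kb away. The intervals at the promoter and in these distant windows did not overlap in either state, although the shares differed by less than 3 percentage points.

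The share of marked promoters depended on the kind of lncRNA gene and on its distance to coding genes. Bidirectional promoter lncRNAs, a class GENCODE places at the divergent start of a coding gene, had a peak in 23 of 55 in proliferating (41.8%, 28.7 to 55.9%) and 25 of 55 in differentiating cells (45.5%, 32.0 to 59.5%). Genes sharing a promoter region with a coding gene had been left out, and 98.2% of these 55 had their own region over a coding gene. Processed transcripts followed with 16.6% (13.6 to 19.9%) and 18.7% (15.5 to 22.2%), and antisense genes with 11.7% (10.5 to 13.1%) and 14.8% (13.4 to 16.2%). LincRNAs, which lie between coding genes, had 6.02% (5.39 to 6.69%) and 6.35% (5.71 to 7.04%). Sense intronic genes had 6.57% (4.00 to 10.1%) and 5.54% (3.20 to 8.84%), and their intervals included the lincRNA values. The classes differed in position as well: the median distance to the nearest coding TSS was 584 bp for bidirectional, 20053 bp for antisense, 22696 bp for processed transcript, 46313 bp for sense intronic and 84920 bp for lincRNA genes.

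Members within 1 kb of a coding TSS were marked in 32.0% (27.9 to 36.3%) in proliferating and 38.5% (34.2 to 42.9%) in differentiating cells. Divergent and same-strand neighbours at this distance share promoter regions and were left out. These 494 genes therefore start downstream of the coding TSS, on the opposite strand, and are read towards it. The shares fell to 13.2 and 15% between 1 and 5 kb, 8.99 and 9.69% between 5 and 20 kb, 7.87 and 9.10% between 20 and 100 kb, and 4.45 and 4.93% beyond 100 kb. The windows 50 kb away, over all members, gave 4.96 and 5.14% in proliferating and 5.35 and 5.32% in differentiating cells. These values lay within the intervals of the shares beyond 100 kb, 3.7 to 5.3% and 4.2 to 5.8%. Such windows are not given for the members beyond 100 kb alone, so their own local level is unknown.

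**Figure D2:**
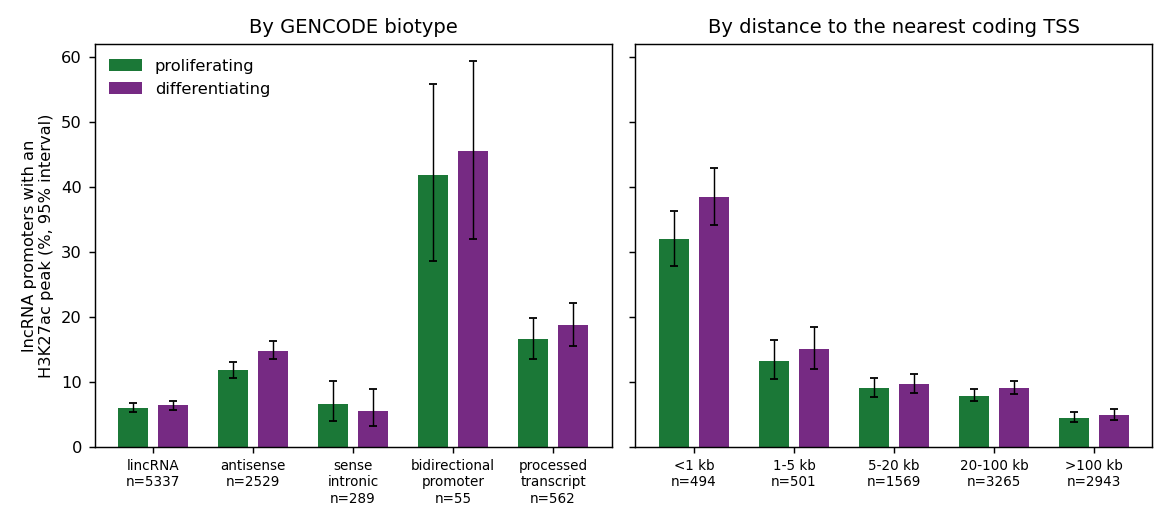
Share of lncRNA promoters with an H3K27ac peak (%, y axis) by GENCODE biotype and by distance to the nearest protein-coding TSS; bars are shares in proliferating and differentiating cells, error bars 95% Clopper-Pearson intervals and n the genes per class. Shares fall from 32.0 and 38.5% within 1 kb of a coding TSS to 4.45 and 4.93% beyond 100 kb.

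The state of the neighbouring coding promoter went with that of the lncRNA promoter. Within 1 kb, 75.2% of members whose neighbour had a promoter peak in either state were themselves marked, compared with 16% of members whose neighbour had none. Beyond 10 kb the corresponding shares were 14.8 and 8.37%. Part of the association close to coding genes is the same peak. Over all distances, 128 of the 753 marked members in proliferating (17.0%) and 161 of 859 in differentiating cells (18.7%) had a peak that also reached a coding promoter region. None of the 465 and 529 marked members over 10 kb from a coding TSS had one. The shared part among marked members near a coding TSS is therefore larger than these shares, and it was not counted within 1 kb. Promoter regions lying over a coding gene were marked in 12.7 and 14.8%, and those outside in 6.16 and 6.85%. Among members over 10 kb from a coding TSS this gap was smaller, with 7.60% (6.46 to 8.87%) and 9.09% (7.85 to 10.5%) over a coding gene and 6.05% (5.42 to 6.73%) and 6.72% (6.06 to 7.43%) outside.

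Marked start sites were richer in CpG. In a window reaching 500 bp to either side of the gene start the median ratio of observed to expected CpG was 0.517 for members marked in both states, 0.259 and 0.310 for those marked in proliferating or differentiating cells alone, and 0.216 for unmarked members. A ratio of at least 0.6, typical of CpG islands, was found at 45.9% of members marked in both states and at 5.35% of unmarked members. Conversely, 33.3 and 39.4% of the 761 members with this ratio were marked, against 6.24 and 6.98% of the others. Beyond 10 kb from a coding TSS the shares were 25.9 and 31.5% against 5.77 and 6.49%, so the gap was also present without a coding promoter close by. Members with at least 50% repeat sequence in the promoter region were marked in 2.33 and 1.73%, against 9.54 and 11% of the rest.

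**Figure D3:**
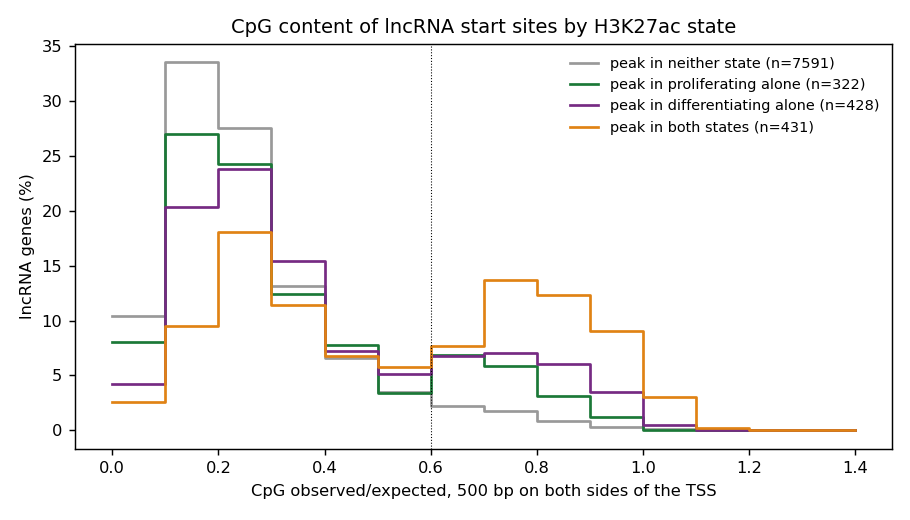
Distribution (% of lncRNA genes, y axis) of the observed to expected CpG ratio within 500 bp of the TSS (x axis) for members marked in both states, in a single state or in neither; the dotted line is the ratio of 0.6. Members marked in both states form a second mode above 0.6, which holds 45.9% of them and 5.35% of unmarked members.

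The motifs were counted in the 300 bp windows of all promoters. The GC box was present in 54.9% (48.3 to 61.3%) of the 237 members with a peak over the TSS in both states, in 9.75% of the 7591 unmarked members and in 12.2% of all members, while protein-coding promoters gave 43.0%. In the 111 of them over 10 kb from a coding TSS it was present in 39.6% (30.5 to 49.4%). The TATA element was present in 3.80% (1.75 to 7.09%) of the 237, 15.2% of unmarked members, 14.7% of all members and 12.7% of protein-coding promoters. CCAAT (28.7 against 39.7% of unmarked members) and ACAAT (21.9 against 40.5%) were also less frequent in the 237, where all members gave 38.8 and 39.3% and protein-coding promoters 39.0 and 28.8%. In the 111 over 10 kb from a coding TSS they were present in 35.1% (26.3 to 44.8%) and 31.5% (23.0 to 41.0%), with intervals that include the unmarked values, and the TATA element in 6.31% (2.57 to 12.6%). CAGCTG was present in 19% of the 237, 17.4% of unmarked members, 17.5% of all members and 15.6% of protein-coding promoters, and TGACTCA in 5.49, 6.09, 6.26 and 4.59%, with the interval of the 237 including the unmarked value for both.

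Of the members marked in proliferating cells 57.2% (53.6 to 60.8%) were marked in differentiating cells as well, and 50.2% (46.8 to 53.6%) in the opposite direction. Protein-coding promoters gave 74.2 and 63.6%. Both states marked 431 members (4.91%, 4.47 to 5.39%), beside 9.80% of genes of every biotype and 17.6% of protein-coding genes. For 388 of them (90.0%) the peaks of the 2 lists overlapped each other, and for 237 (55%) a peak covered the TSS in both. In proliferating cells alone 322 members were marked (3.67%), with 4.54% of all genes and 6.13% of protein-coding genes, and in differentiating cells alone 428 (4.88%), with 6.34 and 10.1%. Marked lncRNA and marked protein-coding genes were both more numerous in the differentiating library.

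Promoters marked in a single state had weaker peaks. Ranked by −log10 q within its list, where q is the peak caller's false discovery rate, the strongest promoter peak stood at a median percentile of 81.4 and 78.7 for members marked in both states. For members marked in proliferating or differentiating cells alone it stood at 45.8 and 51.0. The peak covered the TSS in 63.6 and 66.6% of the former and in 34.2 and 40.2% of the latter. A peak of the other list lay within 10 kb of the TSS for 42.6% of the 322 and 43.0% of the 428, and within 1 kb for 41 and 68 of them. The same shares over all members are not given, so these values have no background.

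**Figure D4:**
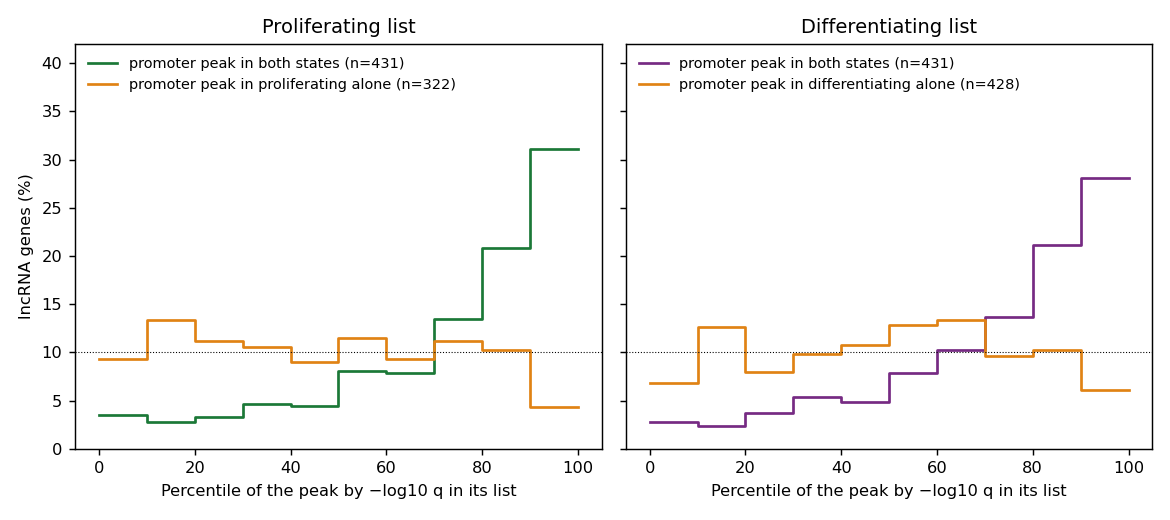
Share of marked lncRNA genes (%, y axis) by the percentile of their strongest promoter peak, ranked by −log10 q within its list (x axis, bins of 10), for members marked in both states and in a single state; the dotted line is the share of all peaks in each bin. The top bin holds 31.1 and 28.1% of members marked in both states, and 4.35 and 6.07% of those marked in a single state.

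Fold enrichment, the authors' ratio of reads in a peak over the local expectation, had a median of 3.41 at lncRNA promoter peaks in proliferating and 3.22 in differentiating cells. Peaks at protein-coding promoters gave 3.60 and 3.42, and peaks at neither kind of promoter 3.30 and 3.08. All peaks had a lower median in the differentiating list (3.13) than in the proliferating list (3.33), so values of a gene in the 2 lists are given side by side and not as a change. Among peaks at lncRNA promoters 69 (9.38%) in proliferating and 88 (10.3%) in differentiating cells had a −log10 q of 5 or more, compared with 13.3 and 14.9% at protein-coding promoters and 2.52 and 3.39% elsewhere. Of the 69 and 88 peaks, 25 and 35 also lay over a coding promoter. Peaks at lncRNA promoters and no coding promoter reached this −log10 q in 7.21 and 7.67%. Their median fold enrichment was 3.36 and 3.18. The 72 and 91 members with a peak of this −log10 q lay within 1 kb of a coding TSS in 41.7 and 40.7%, compared with 5.63% of all members. Of the marked members of any strength, 158 of 753 and 190 of 859 lay within 1 kb. Over 10 kb from a coding TSS lay 41.7 and 48.4% of the 72 and 91, compared with 81.9% of all members.

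Apart from that of Gm26870, described below, the strongest peaks at lncRNA promoters belonged mostly to little studied genes. Zfp335os had a fold enrichment of 7.48 in proliferating and 5.52 in differentiating cells, with −log10 q of 22.3 and 16.9. 1700040L08Rik had 7.03 and 7.42, with −log10 q of 15.9 and 21.1. Both start within a coding gene and face its TSS, and their peaks of 584 to 868 bp covered the lncRNA start in both lists. These peaks also reached the promoter region of the coding gene. Peaks at lncRNA promoters that reached no coding promoter had a highest −log10 q of 20.01 in proliferating and 16.85 in differentiating cells.

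Other strong promoters were far from any coding start. 6720427I07Rik, a lincRNA at chr13:48532905-48546500 on the minus strand and 32930 bp from the nearest coding TSS, had a fold enrichment of 7.90 in proliferating and 7.30 in differentiating cells. 4930580E04Rik, shown above, had 4.57 and 3.45, with −log10 q of 16.6 and 11.4. Both were within the top 1% of their lists in each state. Gm20597, with the CpG-poor sequence shown above, had 3.97 and 3.50, at percentiles 97.8 and 98.4.

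The remaining members of this group were Gm26766, A630072M18Rik, Gm28529, 4930517E14Rik and Gm17251. Gm26766, antisense at Zfp706 and 250 bp from its TSS, had a fold enrichment of 7.43 in proliferating and 4.01 in differentiating cells. Its peaks, 472 bp wide in proliferating and 1294 bp in differentiating cells, also covered the TSS of Zfp706. A630072M18Rik, antisense and 5409 bp from the TSS of Rsbn1l, had 4.12 and 3.68, with −log10 q of 15.3 and 16.9. Gm28529, antisense and 25965 bp from the TSS of Epc1, had 5.98 and 5.44. The values of 4930517E14Rik (4.14 and 4.91) and Gm17251 (5.38 and 5.96), 454 bp from the TSS of Prdm10 and 538 bp from that of Rab11b, were higher in differentiating cells, where −log10 q was 13.3 and 12.1 against 6.10 and 6.16. The peaks of 4930517E14Rik also covered the TSS of Prdm10. The highest −log10 q of all members, 26.2 and 26.9, was that of Gm26870 at the start of chromosome 9, whose fold enrichment was only 1.60 and 1.56 over peaks 3958 and 3966 bp wide. Repeats made up 94.1 and 93.9% of these peaks, and the part of repeats in this value was not tested.

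Among lncRNAs linked to oligodendrocytes or neural development 7 of 20 members were marked, each in both states (35.0%, beside 9.80% of all genes and 4.91% of all members). 9630013A20Rik, a transcript opposite Pcdh17 known from newly formed oligodendrocytes, had a fold enrichment of 3.60 in proliferating and 3.03 in differentiating cells, with peaks over the TSS of 2367 and 1916 bp. Nkx2-2os, antisense to the oligodendrocyte factor Nkx2-2, had 2.77 and 3.19. Its peaks lay 2334 and 2179 bp upstream of the TSS, and the proliferating one was among the weakest of its list, at percentile 3.69.

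Pantr2, the partner transcript of the neural POU factor Pou3f3 at a distance of 17686 bp, had a fold enrichment of 3.79 and 3.17. Emx2os, antisense to the forebrain homeobox gene Emx2, had 3.53 and 3.11, with both peaks over its TSS and over that of Emx2, 263 bp away. C130071C03Rik, a brain transcript 217347 bp from the TSS of Mef2c, had 3.85 and 3.19. Zfhx2os, antisense at the homeobox gene Zfhx2, had 4.22 and 3.23. For 1700020I14Rik (4.22 and 3.26) the peaks of the lists did not coincide, since the proliferating one lay 2955 bp upstream and the differentiating one over the TSS. The other 13 members of the list had no promoter peak in either state, among them Sox2ot, Miat, Rmst, Dlx6os1 and Six3os1, which are known from neural stem cells, neurons or retina.

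Host genes of small RNAs were marked in 6 of 14 (42.9%) in each state, beside 14.3 and 16.1% of all genes and 8.58 and 9.79% of all members. In both states 5 of them (35.7%) were marked, beside 9.80% of all genes. Snhg6 had a fold enrichment of 4.92 in proliferating and 3.65 in differentiating cells, Snhg8 had 4.40 and 4.18, and Snhg5 had 3.69 and 3.80. These small nucleolar RNA hosts had CpG ratios of 0.779 to 1.04 and no coding TSS within 20 kb. Gas5, another such host, had 2.94 and 2.66, with peaks 2362 and 1453 bp upstream of its start and thus within Zbtb37. With 1000 bp on both sides of the TSS both lists also held a Gas5 peak, which lay downstream of the promoter region used here. Mir17hg, precursor of the growth-promoting miR-17 to miR-92 microRNA cluster, had 3.57 and 3.02, with peaks 317 and 1226 bp upstream. Epb41l4aos was marked in proliferating cells alone (3.32, percentile 34.6) and Snhg15 in differentiating cells alone (3.06, percentile 56.0), and the nearest peak of the other list was 21870 and 17733 bp away.

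Of lncRNAs that act in genomic imprinting and X chromosome dosage 2 of 12 were marked in at least 1 state (16.7%). This stands beside 20.7% of all genes and 13.5% of all members. Jpx, an activator of Xist, had a fold enrichment of 4.44 and 4.84, with −log10 q of 4.41 and 6.13. Peg13, an imprinted transcript inside Trappc9, had 3.35 in proliferating cells while the nearest differentiating peak was 32305 bp away. Meg3, H19, Kcnq1ot1 and Airn, which silence or mark imprinted domains, had no promoter peak in either state.

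Among lncRNAs of cell growth, stress and chromatin 7 of 19 (36.8%) were marked in proliferating and 5 (26.3%) in differentiating cells, beside 14.3 and 16.1% of all genes and 8.58 and 9.79% of all members. Pvt1, Trp53cor1 and Lockd sit beside regulators of growth. The start of Pvt1, 52595 bp from the TSS of Myc, had a fold enrichment of 3.18 in proliferating and 3.14 in differentiating cells, and its peak was 1141 bp wide in the former and 2152 bp in the latter. Trp53cor1, a p53 target 11797 bp from the TSS of the cell cycle inhibitor gene Cdkn1a, had 3.66 and 3.40. Lockd, 8691 bp from the TSS of the cell cycle inhibitor gene Cdkn1b, had 3.54 and 2.98. The peaks of these genes covered the TSS in both states.

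Dleu2, host of the growth-restraining microRNAs miR-15a and miR-16-1, had a fold enrichment of 3.82 and 4.19, and Lncppara had 2.27 and 2.51. Tug1, known from retinal development and as a partner of repressive chromatin complexes, had 4.31 in proliferating cells and no promoter peak in differentiating cells. The proliferating peak also covered the TSS of the coding gene Morc2a, 482 bp away. The nearest peak of the differentiating list nevertheless lay 173 bp from the Tug1 TSS, just beyond the downstream border of the region. Both libraries thus had H3K27ac near this start. Bvht, known from cardiac commitment, had a weak peak of 263 bp in proliferating cells (3.32, percentile 37.3). Over the 4 lists 22 of 65 members (33.8%) were marked in proliferating and 19 (29.2%) in differentiating cells, beside 23.7 and 27.7% of protein-coding genes. The lists were drawn up from known genes and are not a sample of lncRNA genes.

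**Figure D5:**
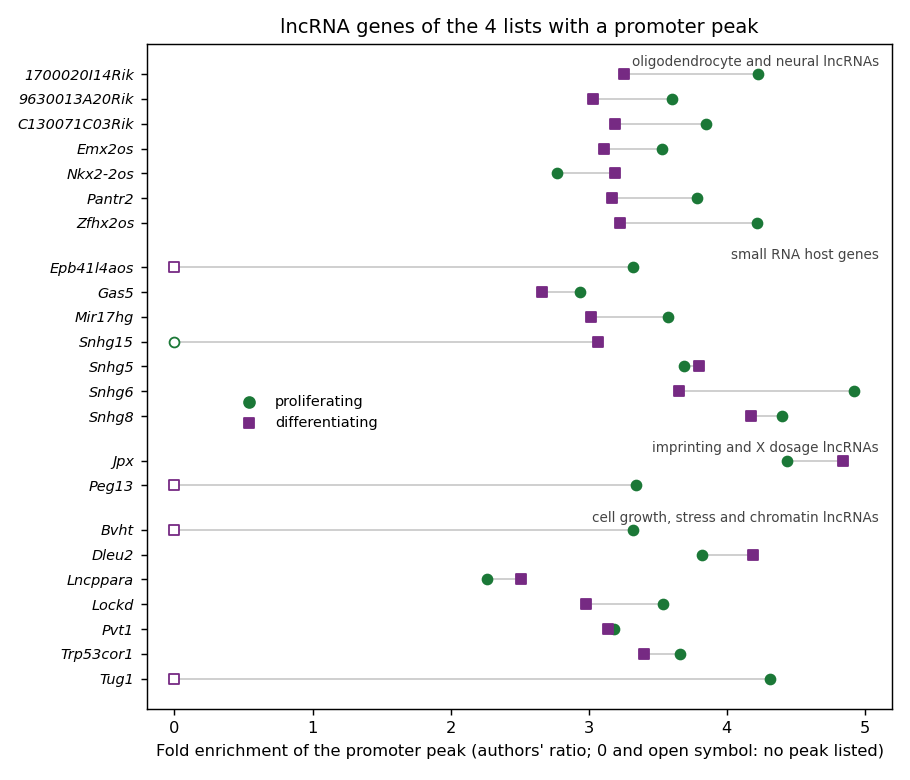
Fold enrichment of the promoter peak (x axis, the authors' ratio) in proliferating and differentiating cells for the 23 marked members of the 4 gene lists (y axis); open symbols at 0 mean that no promoter peak was listed. In 18 of the 23 genes both lists held a peak, with values from 2.27 to 4.92.

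Of members marked in a single state, the largest fold enrichments in proliferating cells were those of Gm10602 (4.68), Gm20703 (4.43), Gm11788 (4.37), Gm11269 (4.35) and Gm37035 (4.32). Gm11788, Gm10602 and Gm37035 had a differentiating peak 212, 564 and 704 bp from the TSS. For Gm20703 and Gm11269 the nearest differentiating peak was 16705 and 47275 bp away, and their proliferating peaks had the smallest width in the list, 263 bp. In differentiating cells the largest values were those of Gm13972 (6.15), Gm45605 (5.47), Gm47819 (5.44), 0610039K10Rik (5.26) and Gm5602 (5.02). The first 3 had a proliferating peak 109 to 126 bp from the TSS, just outside the promoter region. For 0610039K10Rik and Gm5602 the nearest one was 51614 and 31634 bp away. Both are antisense genes facing a coding start, that of Serinc3 at 281 bp and that of Plekha1 at 574 bp, and of the 2 coding promoters only that of Serinc3 was marked, in differentiating cells.

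Marked members were unevenly spread over chromosomes. On chromosomes 1, 10 and 15 the shares were 15.5 and 15.9%, compared with 7.31 and 8.68% on the rest. Protein-coding promoters showed 35.3 and 40.2% against 21.9 and 25.7%. Chromosome 19, counted with the rest, had similar shares, at 15.2% (10.6 to 20.7%) and 18.5% (13.5 to 24.4%) of its 211 members. None of the 551 members on chromosome Y had a peak in either list (0%, interval up to 0.667%), and 1 of 183 protein-coding promoters there had one in each list. On chromosome X 6 of 154 members (3.90%, 1.44 to 8.29%) were marked in proliferating and 5 (3.25%, 1.06 to 7.41%) in differentiating cells, where protein-coding promoters of that chromosome gave 4.64 and 4.96%.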

How the data were processed

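H3K27ac ChIP-seq peak lists of 1 proliferating and 1 differentiating Oli-neu library were used, each with 1 row per peak. Per the labels and the study's methods, reads were aligned to mm10 with Bowtie2 (version 2.1.0 in the submitters' processing notes) and peaks were called with MACS2 (2.0.10), separately for each library; an input library is not given in the sources used here. The deposited files hold coordinates and a text cell from which the fold enrichment (a ratio), the −log10 p-value and the −log10 q-value of each peak, as the authors' caller gave them, were read; the order of these values was taken from their ranges, and the p-values were not used. The weakest deposited −log10 q was near 1 in both lists, that is a q larger than 0.05. The labels give 1 day of differentiation, which was used here, although the methods text gives another duration. The 6 ATAC-seq samples of the series (3 siCtr and 3 siPadi2) were not analysed here.

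Genes, biotypes and TSS came from GENCODE M21, and sequence and repeat masking from the RefSeq copy of GRCm38.p6, the assembly of mm10. A gene was marked when at least 1 bp of a peak overlapped its promoter region. With several peaks the 1 of highest −log10 q was described. Python 3.11.15, numpy 2.4.6, pandas 2.3.3 and scipy 1.17.1 were used, and the overlap counts were tested on simulated data. Named genes were the marked members of 4 lists, the 8 members of highest −log10 q per state with 1 member per peak, the 5 of highest fold enrichment in each state alone, and up to 8 members with a TSS peak in both states for sequences. The class under 5 kb from a coding TSS was divided at 1 kb after the data were seen. Members, lists and rules were chosen with earlier results of these data known. Since each state has 1 library, no test between states was run. In all, 13 alternatives were computed. Of the cell type markers looked up, 1 is not reported here.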

Additional observations from a re-analysis of the deposited data

How the results depend on the processing

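With 1 library per state there is no replicate error, so an alternative was set against the 95% interval of the main share, and the share of members marked in proliferating cells, in differentiating cells, in at least 1 state and in both states was recomputed under 13 alternatives. The main shares were 8.58, 9.79, 13.5 and 4.91%. All 4 stayed within their intervals with a q of at most 0.05 and with 1 member per group of overlapping regions. In the same order, the shares were 12.2, 13.0, 18.6 and 6.64% with 6000 bp upstream of the TSS, 9.74, 10.9, 14.9 and 5.75% with the TSS of every transcript, 6.02, 6.30, 9.71 and 2.61% with at least 0.5 of the peak inside the region, and 0.821, 1.04, 1.47 and 0.388% with a −log10 q of at least 5. They were 6.47, 7.36, 10.6 and 3.26% for members over 10000 bp from a coding TSS, 6.02, 6.35, 9.44 and 2.92% for lincRNA genes, 9.54, 11, 15 and 5.56% with less than 0.5 of the region in repeats, and 7.14, 7.99, 11.5 and 3.60% without peaks over a coding promoter. These settings change the region, the genes or the peaks that count, which by construction moves the share. Chromosomes 1 to 19 gave 9.26, 10.6 and 14.6% for the first 3 shares, and leaving out chromosomes 1, 10 and 15 gave 7.31, 8.68 and 11.5%, the share in both states remaining within its interval. With 1000 bp on both sides of the TSS only the share in both states left its interval, at 5.86%. Under each of the 13 alternatives the differentiating share was the higher one, but the ratio of members marked in differentiating alone to proliferating alone ranged from 1.08 to 1.50, against 1.33. Of the 47 named members, 36 kept the number of lists that mark them with 1000 bp on both sides, 18 with 0.5 of the peak inside and 21 with a −log10 q of at least 5. Tug1, Gm10602, Gm11788, Gm37035, Gm13972, Gm45605 and Gm47819 were marked in both states with 1000 bp on both sides. No paired analysis was possible because the result comes from no test and each state has 1 sample. What depth limits cannot be read from the lists, since they hold no counts.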

Other observations

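The kind of gene symbol, looked at after the data were seen, went with the share of marked promoters. Among the 6171 members known only by Gm and a number, 7.47% (6.83 to 8.16%) were marked in proliferating and 8.07% (7.40 to 8.78%) in differentiating cells. Members with names ending in Rik gave 11.2 and 14.2% of 1617, and those with any other symbol 11.3 and 13.4% of 984. A CpG ratio of at least 0.6 was found in 6.40, 15.2 and 12.3% of these classes, and 83.2, 79.2 and 78.6% of their members lay over 10000 bp from a coding TSS.

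The widest peak at a lncRNA promoter, of 5687 bp in proliferating and 5518 bp in differentiating cells, lay over the promoters of AY036118 and Gm42418 on chromosome 17, with a fold enrichment of 1.76 in both lists.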
